A study of Rattus norvegicus with 6 samples.

Results

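The m6A reader proteins of the YTH and IGF2BP families, together with the hnRNP readers HNRNPA2B1 and HNRNPC, were examined at the level of their mRNAs. The 10 genes, Ythdf1, Ythdf2, Ythdf3, Ythdc1, Ythdc2, Igf2bp1, Igf2bp2, Igf2bp3, Hnrnpa2b1 and Hnrnpc, were picked by symbol among the 21857 gene symbols listed for each library, and all 10 were found. The data were RNA-seq counts from neonatal rat cardiac fibroblasts (NRCFs), cultured directly from the hearts of healthy rats no more than 3 days old. One group of 3 libraries received the empty plasmid (Vector, genotype label WT), and the other group of 3 received a plasmid that encodes FTO (genotype label FTO overexpression). The strain is given as Noway in the labels and as Sprague-Dawley in the design text. Both groups were transfected, so a plasmid is shared by all 6 libraries, and the share of cells that took it up is not given. No source says that the 3 libraries of a group came from separate isolations of cells, so the p-values measure only the spread between these libraries, which may be technical.

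N6-methyladenosine (m6A) is a methyl mark on adenosines of mRNA. It is placed by writers (the METTL3 and METTL14 complex with its adaptors), removed by the erasers FTO and ALKBH5, and bound by readers, which carry its effect. The cytoplasmic YTHDF proteins bind m6A through a YTH domain and are known above all for bringing marked mRNAs to decay. YTHDC1 is the nuclear YTH protein, acting in splicing and export, and YTHDC2 is an RNA helicase with a YTH domain, best known from germ cells. The IGF2BP proteins bind through KH domains and are known for stabilizing their target mRNAs, with IGF2BP1 and IGF2BP3 mainly fetal and IGF2BP2 also found in adult tissues. HNRNPA2B1 and HNRNPC are abundant nuclear proteins that recognise m6A, or the change in RNA folding that it causes, during pre-mRNA processing.

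The libraries held 13178952 to 17857999 counted reads, and 12941 genes passed the filter on low counts. Levels are given as CPM, the reads of a gene as a proportion of its library after trimmed-mean (TMM) scaling, and fold changes as the libraries labelled FTO over Vector. Fto itself, the gene on the plasmid, was at 87.8, 89.6 and 87.4 CPM in Vector and at 93.2, 90.8 and 92.9 CPM in the libraries labelled FTO, with a log2 fold change of 0.06 (SE 0.0468, adjusted p = 0.239). Its mRNA was therefore not detectably raised, and the group is called by its label throughout. The markers of several cell types differed between the groups. The summed level of 8 fibroblast markers was 39998 to 40638 CPM in Vector and 19731 to 20713 CPM in the libraries labelled FTO. Of the 8, 4 were higher and 4 lower past an adjusted p of 0.05. Over all genes tested, 33.2% were higher and 32.8% lower, which holds beside each marker count here. Col1a1 and Col3a1 made up most of the Vector sum, with means of 25809 and 10699 CPM, against 8268 and 3338 CPM in the libraries labelled FTO. Among the higher ones, Dcn went from a mean of 47.0 to 5611 CPM. The 9 macrophage markers summed to 1580 to 1633 CPM against 249 to 284 CPM (1 higher, 8 lower), with Lyz2, at a mean of 1117 CPM, most of the Vector sum. The higher one was Adgre1, with a mean of 6.81 CPM in Vector and 31.7 CPM in the libraries labelled FTO. The 8 cardiomyocyte markers summed to 1495 to 1523 CPM against 2232 to 2276 CPM (7 higher, 1 lower). The lower one was Tnnt2, the largest part of the Vector sum, with means of 770 CPM in Vector and 649 CPM in the libraries labelled FTO. Nppa rose from a mean of 271 to 658 CPM and Myh6 from 192 to 496 CPM. The 6 endothelial markers summed to 24.5 to 25.0 CPM against 52.9 to 55.8 CPM (4 higher and 1 not called of 5 tested). No marker was at 0 in all libraries. In bulk RNA, a change in the number of cells of a type and a change in the RNA of single genes per cell cannot be told apart. The part of these differences in any reader's change was not tested.

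Most readers differed little between the groups. Of the 10 genes, 9 passed the filter, and 3 of these passed an adjusted p of 0.05 (edgeR quasi-likelihood test, Benjamini-Hochberg over all genes tested), all 3 lower in the libraries labelled FTO: Igf2bp3, Ythdc2 and Ythdf3. Among all genes tested, 65.9% passed, 33.2% higher and 32.8% lower. None of the 9 readers reached a 2-fold change, whereas 19.6% of all genes did so with an unadjusted p under 0.05, the threshold the study set. The median absolute log2 fold change was 0.11 over the 9 readers and 0.36 over all genes tested. For 5 of the 9 readers no CPM value of 1 group fell within the other's range, against 70.3% of all genes. The share of readers called thus stood below that of all genes, and these counts describe the 9 readers without a test of the list.

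**Figure D1:**
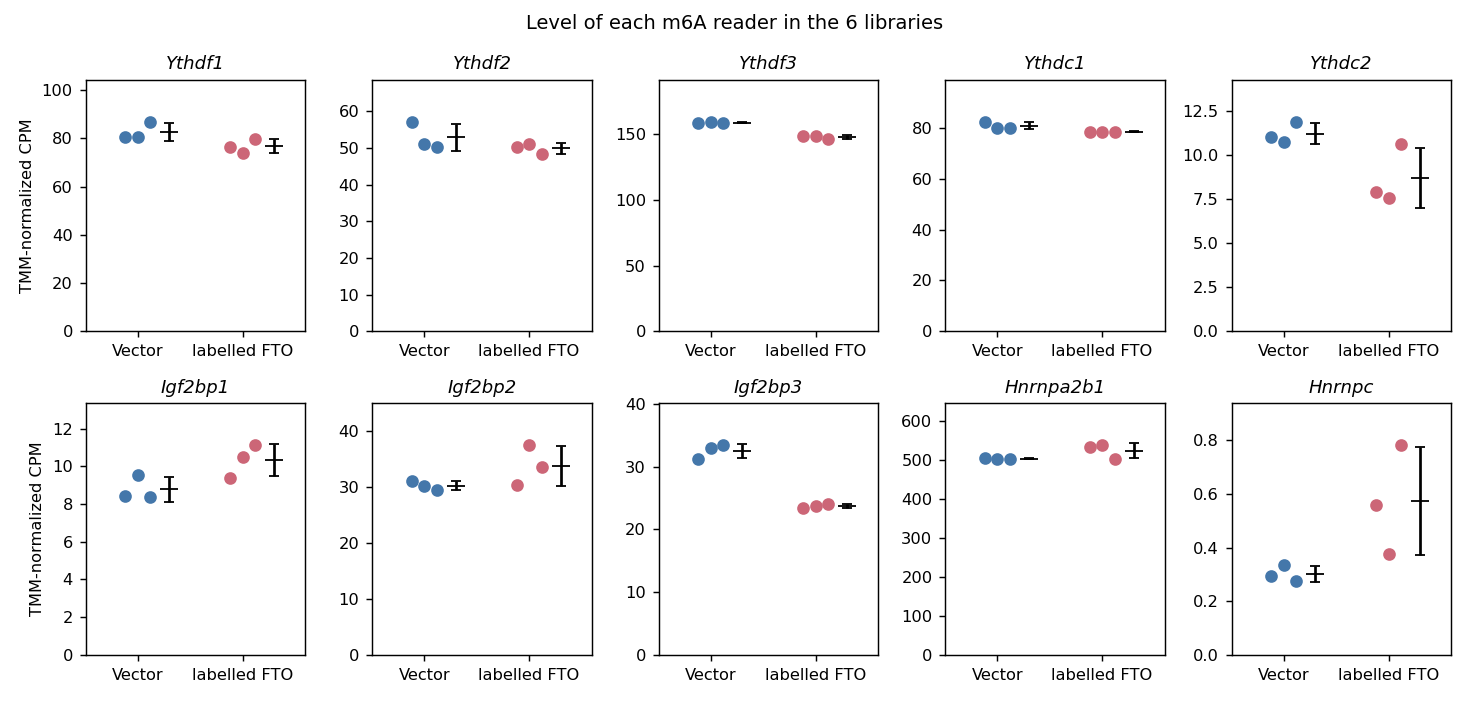
TMM-normalized CPM (vertical axes, each from 0) of the 10 readers in the 3 Vector libraries (blue) and the 3 libraries labelled FTO (red), 1 point per library, with the mean and SD of each group in black. The Igf2bp3 points are 31.2 to 33.4 CPM in Vector and 23.4 to 24.0 CPM in the libraries labelled FTO, and Hnrnpc stays below 1 CPM in both groups.

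Among the IGF2BP genes, Igf2bp3 fell, and it was the reader with the largest change of the 9 tested. Its levels were 31.2, 32.9 and 33.4 CPM in Vector and 23.4, 23.7 and 24.0 CPM in the libraries labelled FTO. Every library labelled FTO thus lay below every Vector library, with a tighter spread than in Vector. The fold was 0.729 (95% interval 0.658 to 0.809), a log2 fold change of -0.46 (SE 0.0699, adjusted p = 3.8e-05 in the edgeR test). Among all genes tested, 57.8% changed by less than this in absolute log2, so the change was near the middle of the distribution. It passed in all 14 alternative fits, with log2 fold changes from -0.49 to -0.44.

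Neither of the other IGF2BP genes passed the test, and their values lay on the other side of 0. Igf2bp2, the member that remains expressed in adult tissues, was at 31.1, 30.2 and 29.4 CPM in Vector and at 30.2, 37.4 and 33.5 CPM in the libraries labelled FTO. The groups overlapped through replicate 1 of the libraries labelled FTO, and the fold was 1.11 (95% interval 0.990 to 1.25, log2 fold change 0.16, SE 0.0801, adjusted p = 0.0987 in the edgeR test). Without that library the log2 fold change was 0.22 with an adjusted p of 0.0332 in the edgeR test. Over the alternatives adjusted p ran from 0.0332 to 0.919, the upper end from glmTreat, which tests for a change beyond 1.2-fold. Igf2bp1, the founding member and a fetal protein, was at 8.41, 9.53 and 8.38 CPM in Vector and at 9.40, 10.5 and 11.1 CPM in the libraries labelled FTO. These groups overlapped in 1 pair of libraries, and the fold was 1.18 (95% interval 0.990 to 1.41, log2 fold change 0.24, SE 0.118, adjusted p = 0.0884 in the edgeR test). The intervals of both genes reach to just under 1 and leave room for increases of up to 1.25-fold and 1.41-fold.

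**Figure D2:**
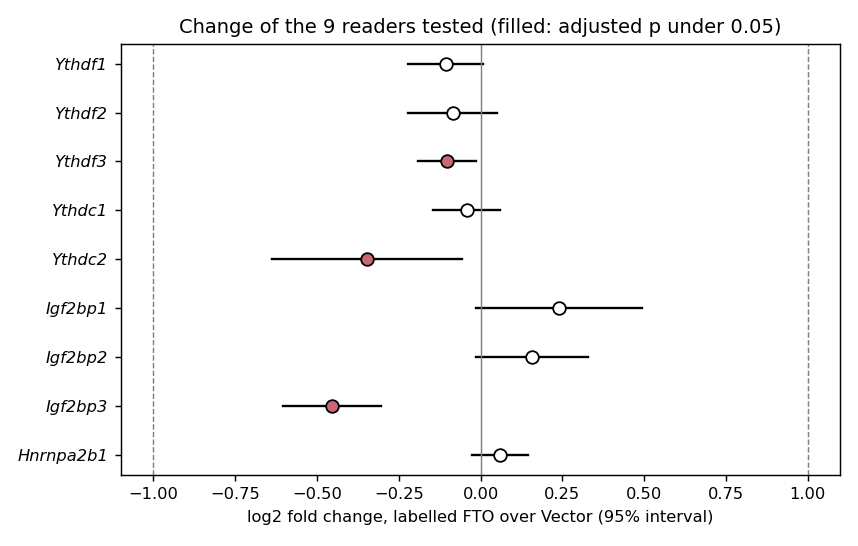
Log2 fold change of the 9 readers tested (points, horizontal axis) with 95% intervals (bars). Filled points passed an adjusted p of 0.05 in the edgeR test, and dashed lines mark a 2-fold change in either direction. The interval of Igf2bp3 is the one farthest from 0, and no reader reaches a dashed line.

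The make-up of the IGF2BP family differed between the groups in every library, while its total did not separate them. Summed over the 3 genes, the family was at 70.7, 72.7 and 71.1 CPM in Vector and at 63.1, 71.6 and 68.6 CPM in the libraries labelled FTO (exact permutation p = 0.3, two-sided, where 0.1 is the smallest p that 3 against 3 libraries allow). Igf2bp3 took 45.5% ± 1.42 of the counted reads of the family in Vector and 35.1% ± 2.02 in the libraries labelled FTO (SD, n = 3), which is 10.4 percentage points less (exact permutation p = 0.1). The share of Igf2bp2 was 42.3% ± 1.49 and 49.7% ± 2.25, and that of Igf2bp1 was 12.3% ± 0.735 and 15.3% ± 0.830 (exact permutation p = 0.1 for each). For all 3 genes the shares of the groups did not overlap. On CPM, Igf2bp3 alone of the 3 separated the groups, as did 70.3% of all genes tested. The 3 shares make up the whole family, so a lower share of Igf2bp3 means a higher share of the others together. The 3 results are therefore not separate. Adjusted over the 10 shares computed, the exact permutation p was 0.2 for each. A share of reads carries transcript length, so it can be followed between the groups for 1 gene but does not rank the genes by number of transcripts.

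Ratios within a library do not depend on how libraries are scaled. The ratio of Igf2bp2 to Igf2bp3 counts was 0.998, 0.916 and 0.880 in Vector and 1.29, 1.58 and 1.40 in the libraries labelled FTO, a log2 difference of 0.61. Igf2bp2 thus had fewer counts than Igf2bp3 in each Vector library, by very little in replicate 1, and more in each library labelled FTO. The ratio of Igf2bp1 to Igf2bp3 was 0.270, 0.289 and 0.251 in Vector and 0.401, 0.443 and 0.464 in the libraries labelled FTO, a log2 difference of 0.69. Neither ratio overlapped between the groups (exact permutation p = 0.1 for each). Both are taken over Igf2bp3, so they are not separate results. The ratio of Igf2bp1 to Igf2bp2 did overlap, at 0.271, 0.316 and 0.285 against 0.311, 0.281 and 0.332 (exact permutation p = 0.5).

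**Figure D3:**
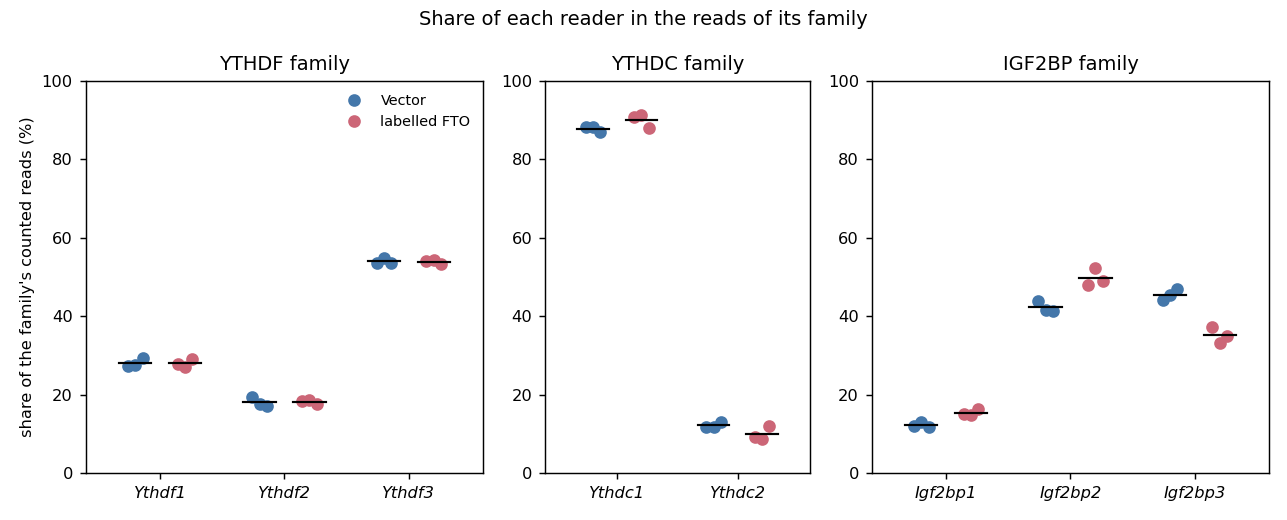
Share of each reader in the counted reads of its family (vertical axis, percent), 1 point per library, with a black line at the mean of each group. In the YTHDF family the groups lie over each other, whereas in the IGF2BP family Igf2bp3 lies between 44.1 and 46.9% in Vector and between 33.1 and 37.2% in the libraries labelled FTO.

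In the YTHDF family all 3 genes had slightly lower levels in the libraries labelled FTO, and their proportions did not separate the groups. Ythdf3, a partner of the other YTHDF proteins in translation and decay, was at 158, 160 and 159 CPM in Vector and at 149, 149 and 146 CPM in the libraries labelled FTO. The libraries within each group lay close together and the groups did not overlap, and a difference of -6.88% passed the test (fold 0.931, 95% interval 0.876 to 0.990, log2 fold change -0.10, SE 0.0411, adjusted p = 0.0388 in edgeR). This call was lost in 9 of 14 alternatives, with log2 fold changes from -0.11 to -0.09 over the 14. Adjusted p ran from 0.0344 to 1, the upper end from glmTreat. That fit tests for a change beyond 1.2-fold, which a difference this small could not pass. Among the 9, adjusted p in edgeR was 0.0736, 0.101 and 0.0861 without Vector replicate 1, 2 and 3 in that order. It was 0.0639 without FTO replicate 1. With all libraries kept, adjusted p was 0.0931 in DESeq2, and in edgeR 0.0682 with no filter and 0.0534 with library size alone.

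Ythdf1, known for promoting translation of marked mRNAs, was at 80.7, 80.4 and 86.9 CPM in Vector and at 76.4, 73.9 and 79.8 CPM in the libraries labelled FTO. The groups did not overlap, but their nearest libraries were at 80.4 and 79.8 CPM. The fold was 0.928 (95% interval 0.857 to 1.01, log2 fold change -0.11, SE 0.0540, adjusted p = 0.0935 in edgeR). Without FTO replicate 3 adjusted p was 0.0318 in edgeR, in a range of 0.0318 to 1 over the alternatives, the upper end again from glmTreat. Ythdf2, the reader that recruits the CCR4-NOT deadenylase, was at 57.2, 51.2 and 50.4 CPM in Vector and at 50.2, 51.2 and 48.4 CPM in the libraries labelled FTO. These groups overlapped, and the fold was 0.943 (95% interval 0.858 to 1.04, log2 fold change -0.08, SE 0.0635, adjusted p = 0.251 in edgeR).

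Summed over the family, the YTHDF genes were at 296, 291 and 296 CPM in Vector and at 276, 274 and 275 CPM in the libraries labelled FTO. The sums did not overlap and differed by -6.76% (exact permutation p = 0.1). The share of Ythdf3 was 54.0% ± 0.731 and 53.9% ± 0.506, that of Ythdf1 28.1% ± 1.12 and 27.9% ± 1.04, and that of Ythdf2 18.0% ± 1.19 and 18.2% ± 0.540 (SD, n = 3). All 3 shares overlapped between the groups, with exact permutation p from 0.8 to 0.9.

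In the YTHDC pair, the gene with fewer reads fell while the gene with more reads did not pass the test. Ythdc1, the nuclear YTH protein, was at 82.6, 80.1 and 80.2 CPM in Vector and at 78.7, 78.5 and 78.6 CPM in the libraries labelled FTO. The groups did not overlap, yet the fold of 0.971 (95% interval 0.904 to 1.04, log2 fold change -0.04, SE 0.0482) had an adjusted p of 0.451 in edgeR. Ythdc2, the helicase, was at 11.0, 10.7 and 11.9 CPM in Vector and at 7.93, 7.55 and 10.7 CPM in the libraries labelled FTO. FTO replicate 3 lay just under the lowest Vector library, and FTO replicates 1 and 2 were well below it. FTO replicate 3 was also the most deeply sequenced library, with 17857999 counted reads, and the part of depth in its value was not tested.

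The fold of Ythdc2 was 0.786 (95% interval 0.642 to 0.961), a log2 fold change of -0.35 (SE 0.136, adjusted p = 0.0351 in edgeR). It rested on single libraries, since the log2 fold change was -0.54 (adjusted p = 0.00143 in edgeR) without FTO replicate 3 and -0.25 (adjusted p = 0.108) without FTO replicate 2. The call was also lost without FTO replicate 1 (adjusted p = 0.121 in edgeR), without Vector replicate 1 (0.0600) and without Vector replicate 3 (0.110). With all libraries kept, it was lost in DESeq2 (adjusted p = 0.0558, Wald test). Over all 14 alternatives adjusted p ran from 0.00143 to 0.214, the upper end from glmTreat. Its share of the family's reads was 11.8%, 11.8% and 12.9% in Vector and 9.15%, 8.78% and 11.9% in the libraries labelled FTO, so the shares overlapped (exact permutation p = 0.3). From the counts alone, the 95% Wilson interval of the share was 7.27 to 10.6% in FTO replicate 2 and 10.4 to 13.6% in FTO replicate 3, intervals that meet between 10.4 and 10.6%. Summed over the pair, the YTHDC genes were at 93.6, 90.8 and 92.1 CPM in Vector and at 86.6, 86.0 and 89.3 CPM in the libraries labelled FTO, sums that did not overlap and differed by -5.30% (exact permutation p = 0.1).

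**Figure D4:**
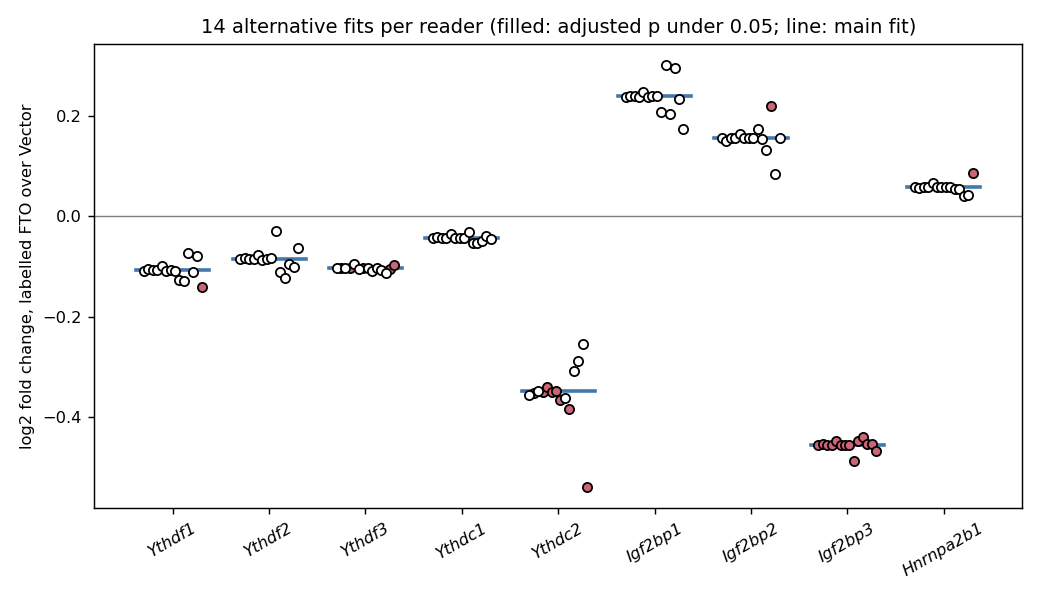
Log2 fold change of the 9 readers tested (vertical axis) in 14 alternative fits each (points), filled where adjusted p was under 0.05, with the value of the main edgeR fit as a blue line. Igf2bp3 is filled in all 14 and stays between -0.49 and -0.44, whereas Ythdc2 spreads from -0.54 to -0.25 and Ythdf3 is filled in 5 of 14. The 14 fits include glmTreat, which tests for a change beyond 1.2-fold.

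Of the hnRNP readers, Hnrnpa2b1 did not pass the test and Hnrnpc was not tested, and their counts differed widely. Hnrnpa2b1, a nuclear RNA-binding protein of splicing and microRNA processing, was at 505, 503 and 503 CPM in Vector and at 534, 538 and 502 CPM in the libraries labelled FTO. FTO replicate 3 lay at the level of the Vector libraries and the other two above it, and the fold was 1.04 (95% interval 0.981 to 1.11, log2 fold change 0.06, SE 0.0401, adjusted p = 0.211 in edgeR). Without FTO replicate 3 adjusted p was 0.0353 in edgeR, in a range of 0.0353 to 1 over the alternatives, the upper end from glmTreat. Hnrnpc had 4, 5 and 4 counts in Vector and 8, 5 and 14 counts in the libraries labelled FTO. With so few counts it failed the filter, and no difference was detectable. Its CPM values, from few counts, were 0.277 to 0.335 in Vector and 0.378 to 0.782 in the libraries labelled FTO, without overlap. Pooled counts of 13 and 27 gave a ratio of 1.97 at equal depth, with a 95% interval of 0.981 to 4.15 that covers counting error only, and with no filter the adjusted p was 0.181 in edgeR.

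Hnrnpc made up 0.0599% ± 0.00607 of the counted reads of the hnRNP pair in Vector and 0.110% ± 0.0429 in the libraries labelled FTO (SD, n = 3, exact permutation p = 0.1). Mean counts over the libraries ran from 1.5 (Hnrnpab) to 10388 in the 18 other hnRNP genes found, so Hnrnpc was not alone in having few counts. How reads that match several near-identical genes were counted is not given, and the counts of the hnRNP genes, which have such copies, are uncertain to that extent. Of 17 other hnRNP genes tested, 9 were higher and 2 lower past the threshold, against 33.2% and 32.8% of all genes. The largest changes were in Hnrnpdl (162 to 171 CPM in Vector, 248 to 252 CPM in the libraries labelled FTO, log2 fold change 0.59) and Hnrnpd (0.37), proteins that bind AU-rich elements, while Hnrnpul2 (-0.22) and Hnrnph1 (-0.22) fell.

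**Figure D5:**
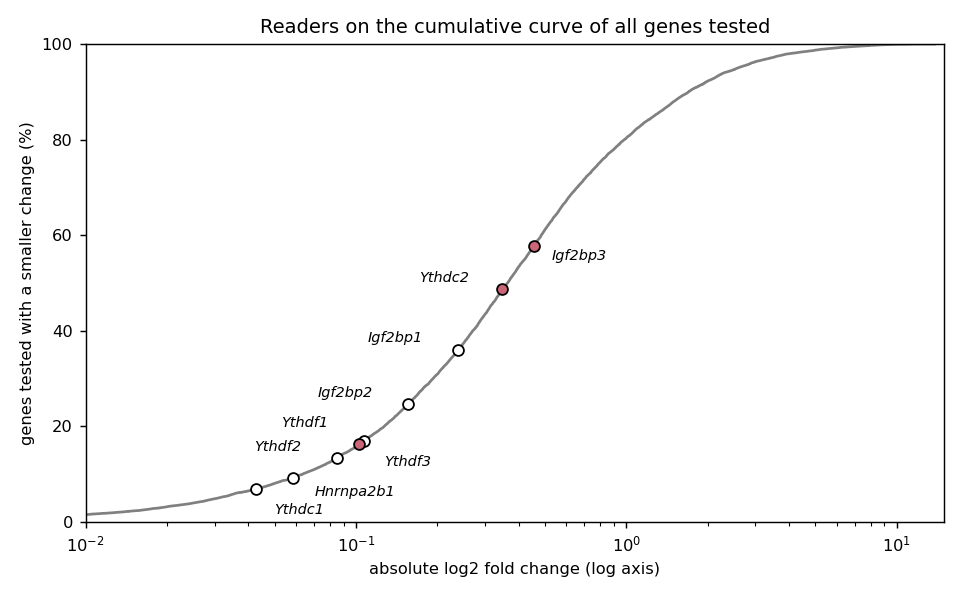
Cumulative curve (grey) of the absolute log2 fold change of all 12941 genes tested (horizontal axis, log scale) against the percent of genes with a smaller change, with the 9 readers as points, filled where adjusted p was under 0.05. Ythdc1 sits at 6.92% and Igf2bp3 at 57.8%, and all readers but Igf2bp3 lie below the middle of the curve.

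The proteins that work with the readers were examined next, against a background of 65.9% of all genes called, 33.2% higher and 32.8% lower, and a median absolute log2 fold change of 0.36. Of the 3 IGF2BP cofactors, Elavl1 (HuR), a stabilizer of mRNA, was higher at 77.4, 81.0 and 81.9 CPM against 71.3, 67.8 and 71.4 CPM in Vector (log2 fold change 0.19, adjusted p = 0.00427 in edgeR). Pabpc1, the cytoplasmic poly(A)-binding protein, was also higher (0.12, adjusted p = 0.0109), while Matr3, a nuclear matrix protein, had 0.14 (adjusted p = 0.0605). Adjusted p in edgeR was 0.0816 for Pabpc1 without Vector replicate 2 and 0.00375 for Matr3 without FTO replicate 2. Of 15 partners of YTHDF2 in mRNA decay that were tested, 4 were higher, 3 lower and 8 not called, a share below that of all genes (median absolute log2 fold change 0.12). The deadenylase subunit Cnot9 (0.25) and Rida (0.39), which links YTHDF2 to the RNase P/MRP complex, were higher, and Pop1 (-0.54), a subunit of that complex, and the deadenylase Cnot7 (-0.28) were lower. Of 9 YTHDC partners tested, 4 were lower, 1 higher and 4 not called, near the 65.9% called over all genes (median absolute log2 fold change 0.13). With so few genes, nothing particular to the YTHDF2 or the YTHDC list is read from these counts. The splicing factors Srsf10 (-0.31) and Srsf3 (-0.16), which bind YTHDC1, were lower and Safb was higher (0.13). The call of Safb was lost without Vector replicate 1, Vector replicate 3, FTO replicate 1 or FTO replicate 3, with adjusted p in edgeR of 0.128, 0.126, 0.0802 and 0.0828 in that order. Rbm46, a germ cell partner of YTHDC2, was at 5.05, 4.43 and 5.06 CPM in Vector and at 2.10, 2.27 and 1.73 CPM in the libraries labelled FTO (log2 fold change -1.26).

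Of the mRNAs known as targets of IGF2BP proteins, members were called in both directions, as were all genes, of which 33.2% were higher and 32.8% lower (65.9% called). Of 12 listed, 11 were found and 9 tested, of which 4 were higher, 4 lower and 1 not called. The share called thus stood above that of all genes, with a median absolute log2 fold change of 0.90 against 0.36. Of the 9, 4 changed at least 2-fold with an unadjusted p under 0.05, against 19.6% of all genes. No test of the list was run, and it was chosen with earlier results of these data known. These counts are therefore not read as a trait of IGF2BP targets. Igf2, the growth factor mRNA after which the family is named, fell from 29.1, 29.7 and 30.5 CPM to 8.77, 8.84 and 9.66 CPM (log2 fold change -1.70, adjusted p = 1.1e-10 in edgeR). By contrast, Cd44, a hyaluronan receptor, rose (1.23) and so did Hmga2, a fetal chromatin protein (1.75). Eprs, the prolyl-tRNA synthetase mRNA that the study links to IGF2BP3, was at 792, 795 and 785 CPM in Vector and at 356, 348 and 362 CPM in the libraries labelled FTO (log2 fold change -1.15). Whether any of these differences is tied to the level of a reader was not tested.

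Lastly, the writers, the erasers and other proposed readers were examined. Of 13 genes listed as writers, 2 were higher, 3 lower and 8 not called, so fewer were called than the 65.9% of all genes. Their log2 fold changes ran from -0.26 to 0.26. The list reaches beyond the METTL3 and METTL14 complex, with Mettl16, Mettl5, Trmt112, Zcchc4 and Pcif1. Mettl14, the partner of the catalytic subunit, was at 38.5, 36.5 and 41.6 CPM in Vector and at 34.1, 31.0 and 32.5 CPM in the libraries labelled FTO (-0.26, adjusted p = 0.00522 in edgeR). The adaptor Rbm15b was lower (-0.24, adjusted p = 0.0222 in edgeR), a call that was lost without Vector replicate 3 (0.0717), FTO replicate 1 (0.0566) or FTO replicate 2 (0.0853). The complex member Cbll1 (0.26) and the cap methyltransferase Pcif1 (0.26) were higher. Virma, named after its value was seen, was the third lower writer (-0.21). The eraser Alkbh5 was higher, at 81.9, 73.3 and 83.2 CPM against 67.5, 66.9 and 71.7 CPM in Vector (0.21, adjusted p = 0.00547 in edgeR). Of 8 other proteins proposed as readers, 5 were lower, 1 higher and 2 not called, against 32.8% lower, 33.2% higher and 65.9% called over all genes, and with 8 genes nothing particular to the list is read from this.

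Fmr1, the fragile X protein, was the higher one, at 89.0, 83.7 and 96.4 CPM against 64.9, 64.8 and 61.8 CPM in Vector (log2 fold change 0.49, adjusted p = 2.8e-06 in edgeR), and its relative Fxr2 was lower (-0.19). Snd1, a nuclease with Tudor domains, was lower, at 229, 225 and 225 CPM against 314, 306 and 311 CPM in Vector (-0.45, adjusted p = 6.6e-08 in edgeR), and Prrc2a was lower by less (-0.11, adjusted p = 0.0281). The call of Prrc2a was lost without Vector replicate 1, Vector replicate 2, FTO replicate 1 or FTO replicate 2, with adjusted p in edgeR of 0.0510, 0.125, 0.0722 and 0.0600 in that order.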

How the data were processed

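RNA-seq of 6 NRCF libraries was used, 3 Vector and 3 labelled FTO, grouped by the genotype labels and numbered by the sample titles. The deposited files hold unnormalized read counts as whole numbers, with genes given by symbol. Per the labels, total RNA was extracted with Trizol and libraries were made with a NEBNext Ultra kit. The submitters' processing notes name Trimmomatic and the rn6 build, and the aligner, counter, annotation and use of strand are not given in the sources used here. Genes that overlap or lie antisense to a reader could therefore share its counts.

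From these counts, genes were kept with filterByExpr (minimum count 10), and 12941 of 21857 remained. Libraries were scaled by TMM (factors 0.995 to 1.01). The groups were compared with the quasi-likelihood test of edgeR 4.0.16 in R 4.3.3, two-sided, without a covariate, and p-values were adjusted by Benjamini-Hochberg over all genes tested. The SE is the fitted log2 fold change over the square root of F. Shares, ratios and family sums were compared by exact permutation of the 6 libraries. Alternatives were DESeq2 1.42.0, voom of limma 3.58.1, glmTreat against a 1.2-fold change, other scalings and filters, a replicate block and leaving out each library. Within a group, counts differed by more than sampling noise (chi-square per degree of freedom 1.58 to 8.38). A floor of 3 counts was worth 0.168 to 0.227 CPM, and intervals from counts cover counting error only.

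The members and gene lists were chosen with earlier results of these data known. Named genes are the 10 readers, Fto, Eprs and, from each list, the 2 highest and 2 lowest log2 fold changes among genes with an adjusted p under 0.05 (all genes of lists of 4 or fewer). Virma was matched through an older symbol, and H19 and Hnrnpa0 were not matched. One gene that the rule names is not reported here.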

Additional observations from a re-analysis of the deposited data

How the results depend on the processing

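Among the 39 genes followed through 14 alternatives, 16 kept their direction and their side of the threshold throughout. Across the others 45 calls were lost, 5 were gained and 0 changed sign. The lost calls include those under glmTreat, a test against a 1.2-fold change that smaller changes could not pass. For Mettl14, Cbll1, Pcif1, Alkbh5, Fxr2, Elavl1, Cnot7, Cnot9, Rida, Srsf3, Srsf10, Hnrnph1 and Hnrnpul2 the call under glmTreat was the only one lost. Of these, Rida, Srsf10 and Cnot7 had fitted changes beyond 1.2-fold (folds 1.31, 0.805 and 0.825) and still did not pass it. The number of readers past the adjusted threshold, 3 in edgeR, was 1 with DESeq2 and 1 with glmTreat against a 1.2-fold change (Igf2bp3 in both), and ran from 1 to 5 when single libraries were left out. It was 1 without Vector replicate 1 or Vector replicate 3, 2 without Vector replicate 2, FTO replicate 1 or FTO replicate 2, and 5 without FTO replicate 3. With glmTreat, which by construction asks for a larger change, 0 writers, 0 erasers, 2 other proposed readers, 0 IGF2BP cofactors, 1 YTHDF2 decay partner, 1 YTHDC partner and 4 other hnRNP genes passed. When single libraries were left out, 3 to 5 YTHDC partners (3 without Vector replicate 1 or 3) and 1 to 2 IGF2BP cofactors (1 without Vector replicate 2) passed. The difference in share, within the spread of the libraries, ran from -0.708 to 0.494 percentage points for Ythdf1, from -0.264 to 0.880 for Ythdf2 and from -0.320 to 0.353 for Ythdf3, and the cause of these sign changes was not tested. The same replicate numbers occur in both groups. Deviations from the group mean correlated at 0.00628, -0.0869 and 0.0440 between same-numbered libraries, and at -0.131 to 0.122 between different-numbered ones. With 3 libraries per group, each centred on its own mean, this cannot decide whether the numbers pair the samples. With the replicate block 2 readers passed, Ythdc2 and Igf2bp3, and Ythdf3 had an adjusted p of 0.0651. Counts per coding length were not run, since no lengths were used here. Few counts limit Hnrnpc, at 4 to 14 per library, and the reason for them was not tested.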
